A study of Homo sapiens with 2 samples.

Results

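Antisense genes named after a partner gene were measured beside that partner in U2OS cells, an established human osteosarcoma line, under mild replication stress. All cells were growing asynchronously in culture and had been given 0.3 µM aphidicolin, an inhibitor of the replicative DNA polymerases, for 18 h. The 2 libraries, replicate 1 and replicate 2, are the replicates of this single group, and no untreated library was analysed here, so nothing below is an effect of the drug. Whether each replicate was its own culture is not in the labels, so differences between replicates, and the p-values that compare them, may be technical only. Members were taken by name alone: a symbol ending in -AS and a number, whose leading part is itself a symbol of the table, with 1 row for each of the pair. A few names were left out by the same rule, namely those starting with HOX, ZFAS1, EPB41L4A-AS1, OIP5-AS1 and PSMB8-AS1. Of 523 symbols named in this way 485 were members, among 18083 symbols with a single row. They named 480 partners, since FSIP2, MEF2C, SEMA6A, ZNF32 and ZNF503 each had a pair of antisense genes.

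A natural antisense transcript is copied from the strand opposite to another gene, and its own promoter may lie beside the partner's start, inside the partner or beyond its end. Many are spliced, polyadenylated long noncoding RNAs. Some are known to act on the partner's chromatin, on its transcription or on its RNA, others act elsewhere in the cell, and for most no function is known. A gene pair that shares a start region and runs in opposite directions is called divergent.

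Levels are RPKM, reads scaled by kilobases of exon and by the library total, and can therefore be compared between genes of different length. The library totals recovered from the RPKM were 13227805 and 13020149 reads, which need not be all reads sequenced. With these totals, 1 RPKM on a gene with 2 kb of exon stood for 26.5 and 26.0 reads. The labelled line was checked against marker genes: all 8 mesenchymal markers reached 1 RPKM in both libraries (2.23 to 279.9 RPKM), and so did 2 of 4 epithelial, 0 of 3 endothelial, 0 of 4 blood and 2 of 4 neuronal markers. The highest of these others were NEFL at 16.1 RPKM and EPCAM at 2.28 RPKM, and 3 of the 4 blood markers were not listed. The table held no value at 0. In bulk RNA, fewer cells with a transcript and less of it per cell cannot be told apart.

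Some rows carried the values of another symbol. A set of 20 members shared both library values with a different symbol, 9 of them with a symbol that begins with LOC. GRIK1-AS2 carried the values of BACH1 (16.1 and 15.6 RPKM), and the exonic length recovered from its values, 7666 bases, lay beside the 7717 bases of BACH1 in the annotation. LHX4-AS1 carried those of ACBD6 (7.02 and 6.48 RPKM), STT3A-AS1 those of FEZ1, and CCDC144NL-AS1 those of LOC339260. For DLEU7-AS1 and DLEU1-AS1 the values equalled those of DLEU1 and DLEU7, the latter at 1 read in each library. Rows with 1 or 2 reads can coincide, as EGFR-AS1 and NDUFA4L2 did at 2 reads in each library. The annotated lengths of ACBD6 and FEZ1, 7512 and 9324 bases, were 2 times the lengths recovered for LHX4-AS1 and STT3A-AS1, 3756 and 4662 bases. For the 20 rows as a set, the shared values alone do not tell which gene the reads came from. Leaving out every pair with such a row left 462 pairs.

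Among divergent pairs, the DNA between the 2 start sites is what both genes share. It is shown for pairs in which the antisense reached 1 RPKM in both libraries and the RefSeq starts lay 50 to 200 bases apart. Of 115 start-to-start pairs with both promoters in the RefSeq table (GRCh38.p14), 21 had this spacing and 7 of those are printed. These 7 may not be all of the pairs with this spacing that reached the level. Each stretch is written 5′ to 3′ on the strand of the antisense gene, from the partner's start to the antisense start, with CpG dinucleotides in capitals. The first 3 belong to pairs with the antisense above its partner and the other 4 to pairs with it below.
URB1-AS1 against URB1, chr21:32393013-32393132, forward strand: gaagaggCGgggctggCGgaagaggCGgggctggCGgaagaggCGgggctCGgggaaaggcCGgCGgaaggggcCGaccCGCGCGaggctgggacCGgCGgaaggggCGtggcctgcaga
TRIM52-AS1 against TRIM52, chr5:181261144-181261211, forward strand: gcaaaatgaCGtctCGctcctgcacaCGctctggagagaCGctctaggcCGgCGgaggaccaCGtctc
ZNF674-AS1 against ZNF674, chrX:46545422-46545489, forward strand: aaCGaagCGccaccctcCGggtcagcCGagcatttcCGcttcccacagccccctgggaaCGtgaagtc
SCAMP1-AS1 against SCAMP1, chr5:78360542-78360616, reverse strand: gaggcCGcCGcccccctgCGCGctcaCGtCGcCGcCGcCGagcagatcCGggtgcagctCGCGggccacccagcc
TRAM2-AS1 against TRAM2, chr6:52577061-52577201, forward strand: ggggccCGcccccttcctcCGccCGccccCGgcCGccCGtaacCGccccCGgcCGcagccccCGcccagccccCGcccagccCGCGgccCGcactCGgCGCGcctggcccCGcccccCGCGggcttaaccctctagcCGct
LENG8-AS1 against LENG8, chr19:54449039-54449198, reverse strand: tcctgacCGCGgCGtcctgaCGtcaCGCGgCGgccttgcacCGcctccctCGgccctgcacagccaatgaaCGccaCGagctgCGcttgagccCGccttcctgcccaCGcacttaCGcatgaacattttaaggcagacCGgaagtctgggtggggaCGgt
ZNF528-AS1 against ZNF528, chr19:52397758-52397848, reverse strand: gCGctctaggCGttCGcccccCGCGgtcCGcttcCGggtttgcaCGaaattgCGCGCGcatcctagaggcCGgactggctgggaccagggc
The 7 stretches were 68 to 160 bases long, with 63.2% to 85.8% G and C and 6 to 21 CpG. The stretch of TRAM2-AS1 held 21 CpG, a number that 7.49% of the 27305 RefSeq promoters reached in a window of the same length. That of ZNF674-AS1 held 6 CpG, which 36.8% of promoters reached. The GC box GGGCGG, the NF-Y motif CCAAT and the core promoter motif TATAAA, none of which contains another, were searched on both strands. The letters GGGCGG occurred 8 times in the TRAM2-AS1 stretch and 1 time in that of SCAMP1-AS1, CCAAT occurred 1 time in that of LENG8-AS1, and TATAAA in none. Over all promoters, windows of these lengths held GGGCGG in 25.3% to 37.5%, CCAAT in 12.2% to 25.3% and TATAAA in 4.28% to 7.38%. A match to these letters is a description and not a binding site.

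The antisense genes were mostly low. At 1 RPKM or more in both libraries, the level called expressed here, stood 112 of 485 members (23.1%), against 66.4% of all single-row symbols and 376 of 480 partners (78.3%). The median member was at 0.370 RPKM, with quartiles of 0.130 and 1.07 RPKM, while the median partner was at 5.44 RPKM and the median of all symbols at 3.49 RPKM. Only 20 members reached a mean of 5 RPKM and 5 reached 10 RPKM, whereas 86 were under 0.1 RPKM. All members together took 30090 reads in replicate 1 and 29746 in replicate 2, which is 0.227% and 0.228% of the totals. The median member rested on 13 and 12 reads, and 219 and 220 members on fewer than 10. The level sets the share: 39.4% of members reached 0.5 RPKM, 3.92% reached 5 RPKM, and 43.9% reached 1 CPM, the same scale without division by exonic length.

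FGD5-AS1 stood apart from every other member (chromosome 3, bases 14920347 to 14948424 of GRCh38). FGD5 encodes an activator of the small GTPase CDC42 that is known from endothelial cells. Replicate 1 gave 56.7 RPKM for FGD5-AS1 and replicate 2 gave 52.8 RPKM, with FGD5 at 2.48 and 2.64 RPKM. The antisense was thus 21.4-fold above its partner, far beyond the gap between the replicates, and it alone held 3873 and 3551 reads. The genes overlap at their ends, with 3.43% of the antisense exonic bases inside FGD5 exons.

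The next members were between 8 and 16 RPKM, and their partners differ widely in role. FOXD2-AS1 (chromosome 1, bases 47432133 to 47434641), which diverges from the forkhead transcription factor gene FOXD2, was at 12.9 RPKM in both libraries against 2.93 and 3.06 RPKM for FOXD2. URB1-AS1 (chromosome 21, bases 32393130 to 32393960), whose shared start stretch is printed above, was at 12.7 and 11.4 RPKM against 8.08 and 8.22 RPKM for the ribosome assembly gene URB1. In both of these pairs all antisense values lay above all partner values, and neither antisense has an exonic base in exons of its partner. LBX2-AS1, beside a homeobox gene, was at 9.79 and 10.8 RPKM against 5.25 and 5.37 RPKM, but 31.2% of its exonic bases lie in LBX2 exons.

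ARRDC1-AS1, against an arrestin-related gene, was at 9.21 and 9.79 RPKM, with ARRDC1 at 5.90 and 5.01 RPKM. THAP9-AS1 diverges from THAP9, a gene derived from a DNA transposase, and was at 8.60 and 9.35 RPKM against 1.05 and 0.940 RPKM. IGFL2-AS1 was at 9.02 and 8.70 RPKM against 2.34 and 2.91 RPKM for IGFL2, a secreted growth-factor-like protein gene. ASB16-AS1 belongs to the same group of antisense genes that exceed the partner in each library: it was at 8.37 and 8.04 RPKM against 2.64 and 2.96 RPKM for ASB16, although 31.1% of its exonic bases lie in ASB16 exons.

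In only 2 of the 12 highest members was the antisense the lower gene of the pair. PSMA3-AS1 was at 9.93 and 9.62 RPKM, below PSMA3, a proteasome core subunit gene, at 50.6 and 47.6 RPKM. LOXL1-AS1 was at 8.08 and 8.09 RPKM, below LOXL1, which encodes a cross-linking enzyme of elastic fibres, at 19.9 and 17.5 RPKM. These antisense genes were among the highest of their kind, beside partners that were higher still. The second highest row, GRIK1-AS2, is one of those with shared values, and SVIL-AS1, the tenth, was close to its partner and is described further on.

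**Figure D1:**
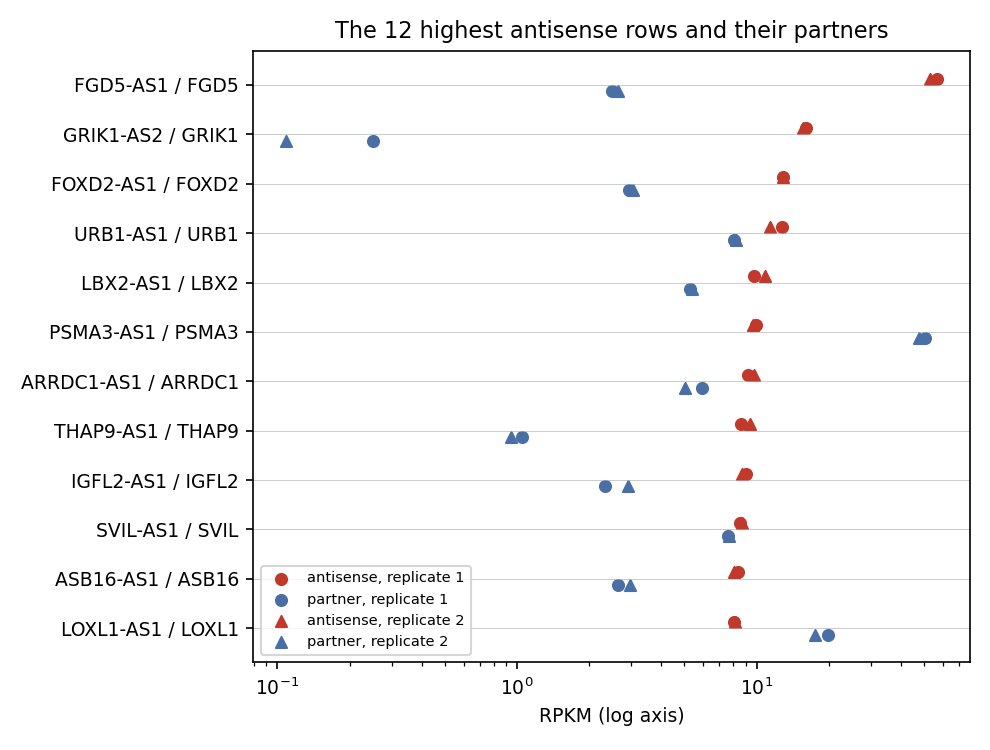
RPKM of the 12 highest antisense genes and of their partners, with a point for each library. FGD5-AS1 is highest at 56.7 and 52.8 RPKM, and PSMA3-AS1 and LOXL1-AS1 are the 2 pairs with the partner above.

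Over all pairs the partner was the higher gene in 404 of 485 pairs in both libraries (83.3%). The antisense was the higher in both libraries in 68 pairs (14.0%), and the libraries gave different orders in 13 (2.68%). The log2 ratio of antisense to partner, taken on RPKM + 0.1, had a median of -3.17 and quartiles of -4.88 and -1.25. Without the added 0.1, the median fold of partner over antisense was 12.6. The partner was at least 10-fold above in 269 pairs and at least 100-fold above in 56, and the antisense at least 10-fold above in 8. The size of the ratio was larger than its difference between libraries in 460 pairs, and that difference had a median of 0.27 on the log2 scale. No test was made within a pair, since an exact permutation test, 2-sided, of 2 values against 2 cannot give a p below 0.33. The median log2 ratio was -1.93 with 1 RPKM added in place of 0.1, and -4.58 on CPM.

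**Figure D2:**
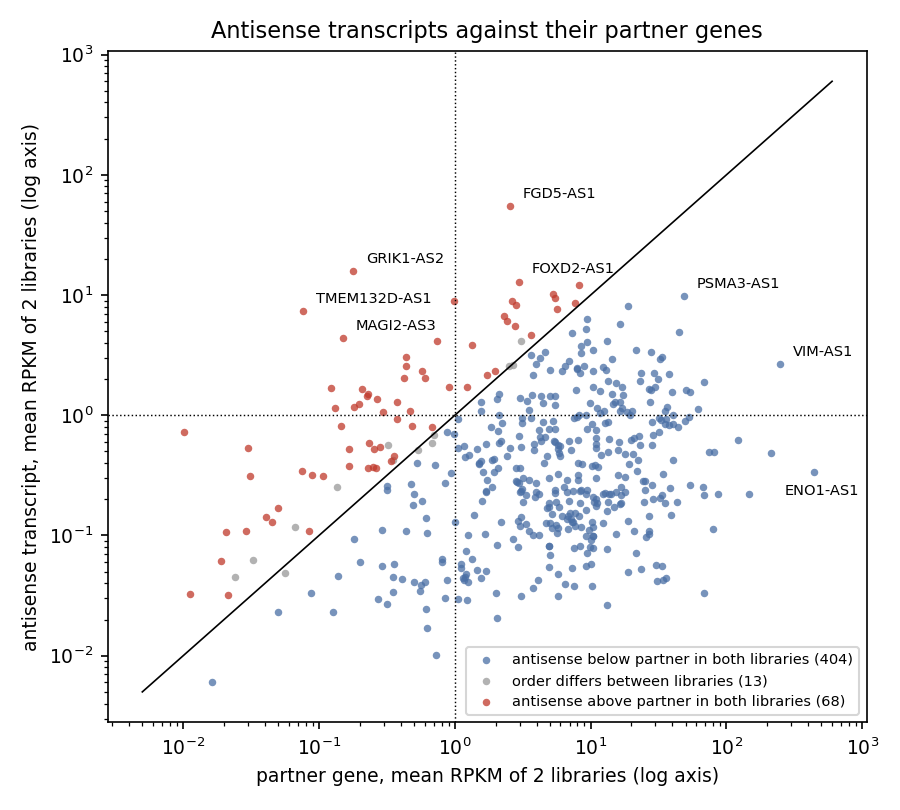
Mean RPKM of the partner (horizontal, log axis) and of the antisense gene (vertical, log axis) for 485 pairs, with the line of equal level and dotted lines at 1 RPKM. Most points lie under the line (404 pairs below in both libraries), and FGD5-AS1 and TMEM132D-AS1 lie far above it while ENO1-AS1 lies far under it.

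Both genes reached the level in 92 pairs, the partner alone in 287, the antisense alone in 20 and neither in 86. Of the 68 pairs with the antisense above, 17 had both genes at the level, 20 the antisense alone and 31 neither. Among the 112 antisense genes at the level, 37 exceeded the partner in both libraries (33.0%). With 10 or more reads for the antisense in each library, 53 of 245 pairs had the antisense above (21.6%).

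Several of the pairs with the largest ratios had partners well under 1 RPKM, whereas FGD5, described above, had 266 and 278 reads. TMEM132D-AS1 lies inside TMEM132D, a single-pass membrane protein gene of 832 kb, and shares no exonic base with it. It was at 7.09 and 7.51 RPKM against 0.0915 and 0.0620 RPKM, which is 9 and 6 reads for the partner. MAGI2-AS3 diverges from MAGI2, the 1437 kb gene of a junction scaffold protein, and was at 4.39 and 4.41 RPKM against 0.124 and 0.177 RPKM. LSAMP-AS1, inside the gene of a neuronal adhesion protein, was at 2.19 and 2.92 RPKM against 0.404 and 0.463 RPKM, without a shared exonic base. In all 3 pairs both antisense values lay above both partner values, with no overlap.

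FGF14-AS2, inside the gene of a fibroblast growth factor homologue that stays in the cell, was at 1.27 and 1.64 RPKM against 0.231 and 0.218 RPKM. ATP2A1-AS1, inside the gene of the calcium pump of fast skeletal muscle, was at 4.28 and 4.08 RPKM against 0.626 and 0.854 RPKM, with 42.2% of its exonic bases in ATP2A1 exons. ATP6V1B1-AS1, inside the gene of a proton pump subunit, was at 1.53 and 1.48 RPKM against 0.171 and 0.289 RPKM. It shares no exonic base with ATP6V1B1, but 78.8% of its exonic bases lie in exons of other genes on either strand, and reads from those bases cannot be told apart. These partners are genes of muscle, kidney or nerve cells by textbook knowledge, and all 3 were below 1 RPKM in both libraries.

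Partners of other specialised cells were in the same range. CD27, a receptor of lymphocytes, had 3 and 13 reads (0.161 and 0.708 RPKM), while CD27-AS1 was at 2.96 and 3.15 RPKM. A1BG, a plasma glycoprotein gene, was at 0.170 and 0.192 RPKM, and A1BG-AS1, with 57.6% of its exonic bases in exons of other genes, A1BG included, at 1.41 and 0.933 RPKM. MUC12-AS1, against a mucin gene, was at 1.30 and 2.08 RPKM on 7 and 11 reads, with 47.7% of its exonic bases in MUC12 exons, so its level is among the least certain. The remaining pairs of the 15 with the largest ratios and an antisense mean of at least 1 RPKM were SDCBP2-AS1, TPRG1-AS1 and TSPEAR-AS1, with log2 ratios of 2.52, 2.43 and 2.18.

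Pairs whose partner spans 300 kb or more had the antisense above in 11 of 46 (23.9%), against 55 of 435 other pairs (12.6%). Their median log2 ratio was -1.67. Of the 46 large partners 23 reached the level, and of their antisense genes 10 did. The difference between the shares was not tested.

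At the other end were antisense genes beside the most abundant partners. ENO1, which encodes a glycolytic enolase, was at 441 and 446 RPKM, and ENO1-AS1 at 0.332 and 0.337 RPKM on 2 reads in each library. VIM, the gene of the mesenchymal intermediate filament vimentin, was at 249 RPKM in both libraries and VIM-AS1 at 2.94 and 2.41 RPKM. VIM-AS1 was thus the only one of the antisense genes of the 8 highest partners to reach the level, and 32.2% of its exonic bases lie in VIM exons.

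SLC25A5, an ADP/ATP carrier of mitochondria, was at 212 RPKM and its antisense at 0.481 and 0.489 RPKM. CSE1L, the exporter of importin alpha, was at 147 RPKM with CSE1L-AS1 at 0.334 and 0.113 RPKM, and the stimulatory G protein gene GNAS at 121 RPKM with GNAS-AS1 at 0.641 and 0.609 RPKM. SRRM2 and RAD21, genes of splicing and of cohesin, were at 86.5 and 79.2 RPKM, and the means of their antisense genes were 0.221 and 0.113 RPKM. The lowest members of all were SCN1A-AS1, DLEU1-AS1 and SOCS2-AS1, at 1 or 2 reads in each library.

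Among the 92 pairs with both genes at the level, a few were near balance. SVIL-AS1 was at 8.52 and 8.72 RPKM and SVIL, the gene of an actin-binding protein, at 7.62 and 7.65 RPKM, a small difference that both replicates showed. TTC28-AS1 was at 3.16 and 3.19 RPKM and TTC28 at 3.50 and 3.84 RPKM, the reverse order. For SH3BP5-AS1 (2.56 and 2.59 RPKM), with 34.4% of its exonic bases in SH3BP5 exons, the partner lay above in replicate 1 and below in replicate 2 (2.72 and 2.30 RPKM). DHRS4-AS1, which spans the short-chain dehydrogenase gene DHRS4, was at 2.55 and 2.68 RPKM against 2.17 and 3.20 RPKM, so the spread of the partner covered the antisense. GPRC5D-AS1, ZNF528-AS1, FGF12-AS2 and CCDC144NL-AS1 had log2 ratios of 0.25, -0.25, 0.30 and 0.35.

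The antisense level hardly followed the partner level. Across the 485 pairs Spearman's rho was 0.168 and Pearson's r of log2(RPKM + 0.1) was 0.147, with rho at 0.183 in replicate 1 and 0.146 in replicate 2. The pairs share library and depth and, in part, exons, so this is a description. With the pairs split by partner level into 4 groups of nearly equal size, the median antisense was at 0.263, 0.402, 0.303 and 0.562 RPKM from the lowest partners to the highest, and 22 of 122, 31 of 121, 27 of 121 and 32 of 121 antisense genes reached the level. The pairs with the antisense above numbered 53, 11, 4 and 0 in the same order. The partner's level is part of that order, so these last counts follow in part from the split.

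**Figure D3:**
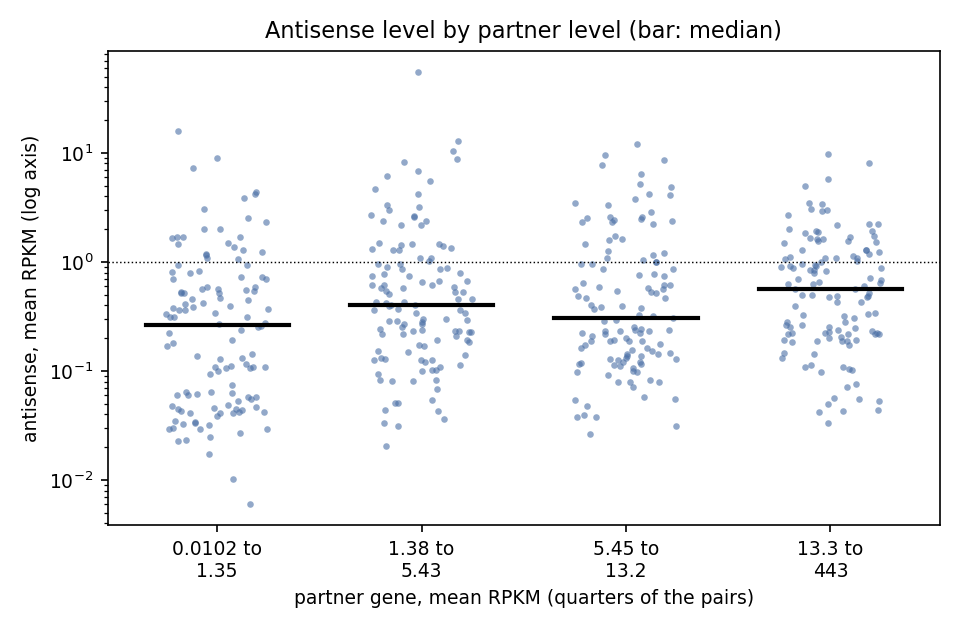
Antisense mean RPKM (log axis) in 4 groups of pairs split by partner level, with a point for each antisense gene, a bar at the median and a dotted line at 1 RPKM. The medians are 0.263, 0.402, 0.303 and 0.562 RPKM, while the partner ranges run from 0.0102 to 1.35 RPKM in the lowest group and from 13.3 to 443 RPKM in the highest.

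Positions came from GENCODE release 29, in which 481 pairs were matched and all 481 lay on opposite strands. By gene type 371 of these members were antisense, 58 lincRNA and 42 processed transcript. Start-to-start pairs had starts within 2 kb and neither gene inside the other. A nested pair with starts this close, such as ATP2A1-AS1 and ATP2A1, was counted by its nesting. The largest class was start to start, with 175 pairs (36.4%) and a median gap of 425 bases. In another 124 the antisense lay inside the partner, in 98 the ends overlapped, in 50 the genes overlapped at the starts with starts over 2 kb apart, and in 28 the antisense contained the partner. The last 6 had starts over 2 kb apart and did not overlap. Some start-to-start pairs, such as FOXD2-AS1 and FOXD2, do not overlap either.

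Start-to-start antisense genes reached the level in 50 of 175 pairs (28.6%) and had a median of 0.473 RPKM. Those inside the partner did so in 23 of 124 (18.5%), with a median of 0.266 RPKM. The partners of the first class were also higher, with a median of 8.35 RPKM against 5.24 RPKM, and the median log2 ratio was nearly equal, -3.46 and -3.44. The antisense was above the partner in 17 pairs of each class, which is 9.71% of the start-to-start pairs and 13.7% of those inside the partner. In the 28 pairs with the partner contained in the antisense, the median partner was at 1.34 RPKM, the antisense was above in 8 pairs (28.6%), and the median log2 ratio was -0.67. End overlaps had the antisense at the level in 20 of 98 (20.4%) with a median of 0.320 RPKM. None of these differences between classes was tested.

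**Figure D4:**
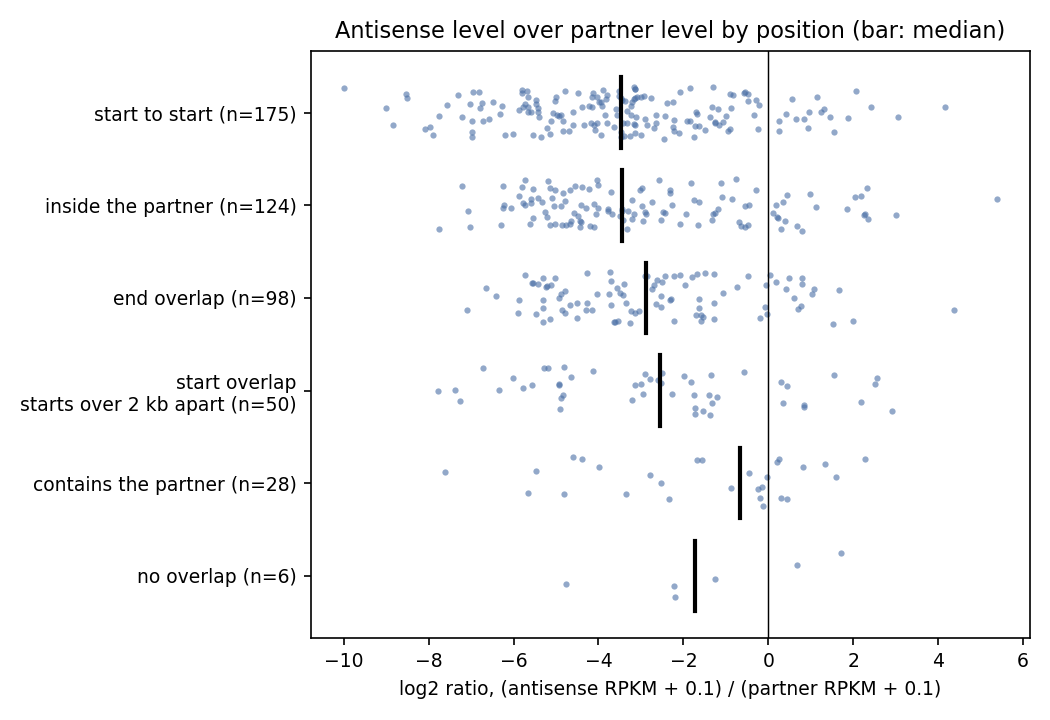
Log2 ratio of antisense to partner, on RPKM + 0.1 (horizontal), for 481 pairs by position class, with a point for each pair, a bar at the median and a line at equal level. The medians run from -3.46 for start-to-start pairs to -0.67 where the antisense contains the partner, and the classes overlap widely.

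The library preparation as described does not mark strand, so a read from an exon that both genes share could come from either. Any exonic base was shared with the partner in 328 of 481 pairs, the median share of the antisense exons was 5.93%, and it was 10% or more in 183 pairs and 50% or more in 20. The median antisense was at 0.379 RPKM in the 153 pairs without a shared base, 0.259 RPKM in the 145 with less than 10% and 0.398 RPKM in the 183 with 10% or more. The median log2 ratio was -3.23, -3.15 and -3.14, and the antisense was above in 24, 18 and 24 pairs. OCIAD1-AS1 is an example of a high share: 82.3% of its exonic bases lie in exons of OCIAD1, which was at 40.6 and 40.1 RPKM, and the antisense was at 0.571 and 1.45 RPKM on 2 and 5 reads. PITPNA-AS1, with a share of 69.9%, was at 6.28 and 5.24 RPKM against 15.9 and 16.8 RPKM for PITPNA. Exons of any other gene on either strand covered 10% or more of 223 members.

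Partner roles came from lists of symbols and symbol prefixes that are not complete, and the cohesin gene RAD21, for example, is on none. Counts by role cover these lists only. On the list for DNA replication, repair, the cell cycle and chromatin, the processes on which aphidicolin bears most directly, there were 11 members. Of these antisense genes 5 and of their partners 9 reached the level, and 9 antisense genes were below the partner in both libraries. TMPO-AS1, against the gene of a nuclear lamina protein, was at 2.995 and 3.16 RPKM beside 33.4 ± 1.12 RPKM (SD, n = 2) for TMPO. PAXIP1-AS1 was at 1.78 and 1.63 RPKM and above PAXIP1, a DNA damage response gene, at 0.909 ± 0.0177 RPKM. SMC2-AS1 and CDKN2B-AS1 were at 0.0439 and 0.0336 RPKM, while the condensin gene SMC2 was at 35.7 RPKM.

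The list of transcription factor partners took 43 antisense genes, with 10 at the level, 36 below the partner and 7 above. FOXD2-AS1 and LBX2-AS1, both above their partners, are not on it. ZEB1-AS1 was at 3.70 and 3.80 RPKM beside 8.53 RPKM for ZEB1, a repressor of epithelial genes. FOXP4-AS1 was at 3.24 and 3.54 RPKM beside 27.99 RPKM for FOXP4, and ZNF674-AS1 was the higher gene at 3.54 and 4.13 RPKM beside 1.34 RPKM for the zinc finger gene ZNF674. SOX9-AS1 was at 0.0566 RPKM beside 30.4 RPKM for SOX9, a regulator of cartilage formation, and is one of the rows with shared values.

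On the list for the cytoskeleton, adhesion and matrix, 6 of 20 antisense genes and 18 of 20 partners reached the level. FGD5-AS1 was the one antisense on this list above its partner. The list leaves out SVIL, and SVIL-AS1, described above, also exceeded its partner. COL5A1-AS1 was at 1.07 and 1.09 RPKM, on 4 reads in each library, beside 20.2 RPKM for the fibrillar collagen gene COL5A1. On the list for translation, RNA and ubiquitin, which holds SBF2 and leaves out SRRM2, 8 of 21 antisense genes and all 21 partners reached the level. TRIM52-AS1 alone on this list was above its partner, at 5.64 and 6.64 RPKM beside 2.41 RPKM. It has no exonic base in TRIM52 exons but 28.04% in exons of other genes. USP46-AS1 was at 5.99 and 6.74 RPKM beside 9.35 RPKM for the deubiquitinase gene USP46.

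Of 29 antisense genes on the list for membrane transport and trafficking 7 reached the level, 22 were below the partner and 6 above. TMEM147-AS1 was at 4.99 and 4.87 RPKM beside 44.5 RPKM for TMEM147, and SLC16A1-AS1 at 2.13 and 1.88 RPKM beside 31.6 RPKM for the lactate transporter gene SLC16A1. Of 6 pairs on the metabolic list, which leaves out ENO1, 2 had the antisense above and 2 had no stable order. CKMT2-AS1 was at 1.97 and 2.08 RPKM beside 0.605 RPKM for the mitochondrial creatine kinase gene CKMT2, and COX10-AS1 was at 0.892 and 1.00 RPKM beside 3.13 RPKM.

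A list of 81 antisense and related RNAs that are often studied contained 45 members, of which 20 reached the level (44.4%, beside 23.1% of all members). The list was written with earlier results of these data known, and the difference in share was not tested. The antisense was above in 8 of the 45 pairs and below in 37, and the median log2 ratio was -3.01. Besides those already named, MAPKAPK5-AS1 was at 5.08 and 5.90 RPKM, above MAPKAPK5, a stress-activated kinase gene, at 2.80 RPKM, with 34.6% of its exonic bases in MAPKAPK5 exons. RHPN1-AS1, MCM3AP-AS1, PRKCQ-AS1, TMCC1-AS1, TMEM161B-AS1 and SBF2-AS1 reached the level and were below their partners, with log2 ratios of -2.25, -2.22, -1.84, -2.09, -1.72 and -1.59.

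Members were also set beside other noncoding genes grouped by name. Of 505 genes named LINC 92 reached the level (18.2%), with a median of 0.204 RPKM, and of 69 named -DT, for divergent transcript, 17 did (24.6%), with a median of 0.388 RPKM. Among 68 -DT genes with a listed partner, 4 were above it in both libraries (5.88%), 62 below and 2 in different orders, with a median log2 ratio of -3.05. Of 20 genes named as intronic or overlapping transcripts 5 reached the level, with a median of 0.410 RPKM. These differences in share were not tested.

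No member was called as different between the libraries. An exact binomial test (2-sided, reads recovered from the RPKM, Benjamini-Hochberg adjustment over all rows) called 0 of 485 members at 0.05, against 0.964% of all rows and 5 of 480 partners, among them COL4A2, GNAS, KTN1 and UBE2D3. At an unadjusted p under 0.05 there were 17 members (3.51%), against 9.18% of all rows. The median member had 13 and 12 reads, while the median of all single-row symbols was 242 and 236 reads. Few reads leave this test little power, and these shares were not compared at equal reads, so they do not show that members differ less. The lowest p was that of FGF13-AS1, with 2 and 15 reads (exact binomial adjusted p = 0.0873), so that it was below FGF13 in replicate 1 and above it in replicate 2. FGD5-AS1 followed at an exact binomial adjusted p of 0.201, with 3873 and 3551 reads.

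The spread followed the read number. The median size of the log2 ratio of replicate 2 to replicate 1 was 0.70 for 221 members with a mean of 1 to 10 reads, 0.27 for 200 with 10 to 100 and 0.08 for 64 with at least 100. All rows of the same read numbers had 0.63, 0.25 and 0.07. SEMA3B-AS1, on 25 and 12 reads, was at 5.59 and 2.73 RPKM and so lay above SEMA3B in replicate 1 and below it in replicate 2 (3.20 and 2.94 RPKM). Across members the replicates correlated with Spearman's rho of 0.934 and Pearson's r of 0.957 on the log2 scale, a description over 485 genes.

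**Figure D5:**
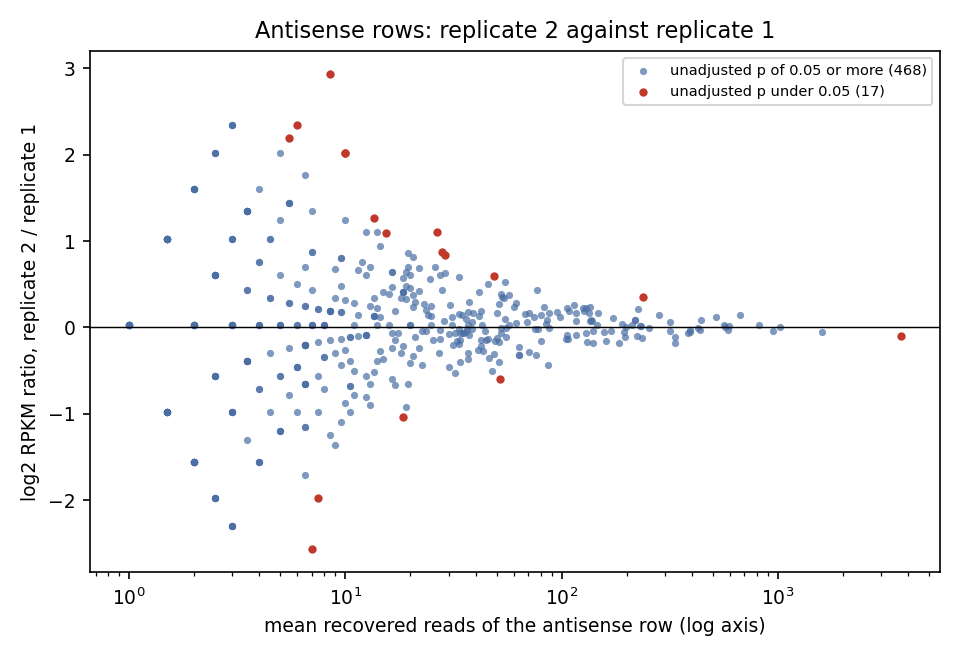
Log2 ratio of replicate 2 to replicate 1 in RPKM (vertical) against the mean recovered reads (log axis) for 485 antisense genes, with the 17 at an unadjusted p under 0.05 in red. The points narrow toward 0 as reads rise, FGF13-AS1 (2 and 15 reads) is the highest red point, and FGD5-AS1 is the point farthest to the right.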

How the data were processed

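Polyadenylated RNA of 1 group of 2 libraries was sequenced. Per the file headers, the authors deposited RPKM, in 1 table of 18277 rows with both libraries side by side. The submitters' processing notes name Trim Galore, HISAT2 and featureCounts as tools and hg38 and GRCh38.p13 as builds. Their versions, the gene annotation, the strand setting and any filter were not given in the sources used here.

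Both members and gene lists were chosen with earlier results of these data known. Symbols with several rows (58) were left out. Reads were recovered from the RPKM: column ratios were whole-number ratios within 2e-13, 1019 genes with equal reads set the library totals, and GENCODE 29 exonic lengths set the whole factor per gene. Of the matched genes, 90.9% had a recovered length within 10% of the annotated one, which is partly built in. For 60 members the factor rests on that length alone. Ratios used a pseudocount of 0.1 RPKM. Libraries were compared by a 2-sided exact binomial test on library sizes scaled by TMM (trimmed mean of M values; factor 0.9946), covering counting error only, over 18059 rows. In a simulation of 16887 genes the library totals came back exactly, and 100% of 199 genes changed 2-fold were called, with 5.69% of 211 calls unchanged. The changed genes were drawn only from genes with many more reads than the median member, which had 13 and 12. The simulation therefore does not show how often a change in a low member would be called. Genes named were the 12 highest and 3 lowest members, the 15 largest ratios above the partner at 1 RPKM, the 8 closest pairs among those with both genes at 1 RPKM in both libraries, the 8 highest partners, those that differed most between libraries, the studied antisense genes at 1 RPKM and the 3 highest of each role list. Pairs with high exon overlap, -AS genes with mixed order and some further list members were chosen after their values were seen. Some genes that these rules took are not reported here. Alternatives changed the level, pseudocount, length scaling, overlap, read minimum and library. Python 3.11.15, numpy 2.4.6, scipy 1.17.1, pandas 2.3.3 and matplotlib 3.10.9 were used.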

Additional observations from a re-analysis of the deposited data

How the results depend on the processing

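Alternatives were run for the share at the level, the order of the pairs, their ratio, the rank correlation, the library comparison, start-to-start against inside genes and members against LINC genes, and none of those run reversed a direction. The exon overlap, role lists, -DT genes, large partners and other position classes had none. The share of members at the level (23.1%) was 24.7% to 26.4% with 1 library left out, since the level then has to be met in only 1 library. It was 24.8% among pairs with under 10% of antisense exons in partner exons, 39.4% at 0.5 RPKM, 3.92% at 5 RPKM and 43.9% at 1 CPM, reads scaled by library total alone. The 68 pairs with the antisense above became 42 of 298 with under 10% overlap and 37 of 112 with the antisense at 1 RPKM, where fewer pairs enter. The median log2 ratio (-3.17) was -3.18 to -3.16 with 1 library left out, -3.21 with under 10% overlap, -3.66 without a pseudocount, -1.93 with a pseudocount of 1, -3.71 for pairs with a gene at the level and -4.58 on CPM. The rank correlation (0.168) was 0.199 with under 10% overlap. The share at the level was 10.0 percentage points higher for start-to-start genes than for those inside the partner. With alternatives added after seeing the data it was 9.43 with starts within 5 kb, 10.1 without shared values, 10.9 with starts within 1 kb, 10.96 with under 10% overlap and 10.3 to 11.3 with 1 library left out. The gap of 4.87 points between members and LINC genes was 4.54 to 6.79 with 1 library left out, also added later. No paired analysis was possible because there is 1 group. Counts under 10 reads limit the order of 219 and 220 members, and shared values alone do not assign the -AS rows that carry them.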

Other observations

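Antisense genes whose partner is not listed entered no comparison. There were 28 with a single row outside the pairs, and 4 of them reached 1 RPKM in both libraries (14.3%), with a median of 0.128 RPKM. The highest, CYP17A1-AS1, had a mean of 10.4 RPKM and carried the values of another symbol, WBP1L. Among the divergent transcripts, BAIAP2-DT was highest at 11.5 and 11.99 RPKM, above BAIAP2, the gene of an actin-regulating adaptor, at 7.30 and 6.80 RPKM. APCDD1L-DT and PCCA-DT were also above their partners, at 2.73 and 2.71 RPKM and at 2.37 and 1.96 RPKM. Among the genes named LINC, LINC00452 was highest, with a mean of 38.9 RPKM.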
